A study of Mus musculus with 2 samples.

Results

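The nuclei described here were selected as newly formed oligodendrocyte nuclei from 2 single-nucleus RNA libraries of mouse hippocampus. They number 370 of 25957 filtered nuclei: 35 of 13429 in a library labelled Bcas2 knockdown and 335 of 12528 in its vehicle control. A nucleus was a member when Enpp6 and Gpr17 together had at least 2 UMIs (unique molecular identifiers, each standing for a captured RNA molecule) and at least 2 of Bcas1, Tns3, Itpr2, Kif19a and Bmp4 had a UMI. It also had to lack Pdgfra and to hold at most 6 UMIs of Syt1. Filtered nuclei had 500 or more genes, 800 or more UMIs and less than 5% of UMIs from mitochondrial genes. Values of the genes that chose them are given as a description and support nothing. The nuclei were thus selected on the UMIs of these 9 genes. They are called Enpp6/Gpr17 nuclei below, because most of those in the control did not carry the other genes that the label implies.

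Both libraries came from mice carrying floxed alleles of Bcas2 (Bcas2F/F), which encodes a component of the Prp19 splicing complex. In the knockdown-labelled library the mice had been injected with AAV2/9-Syn-cre, an adeno-associated virus that places Cre under the neuronal synapsin promoter. In the other library they had been injected with the AAV-vehicle; the genotype label of that library reads WT, although its title names floxed mice. The sources used here state neither how many mice were pooled, nor their age, nor which exons are floxed. With 1 library per group no difference between the libraries has a replicate check, and values are compared without tests. The deposited matrices hold 16693 and 12621 barcodes with 90594923 and 41781481 UMIs, and they share 56 barcode sequences, carried by 0 and 3 of the nuclei described here. The 95% intervals are exact and cover counting error only. Where values come as a pair, the knockdown-labelled library is the first.

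Oligodendrocytes arise throughout adult life from oligodendrocyte precursor cells (OPCs), which carry Pdgfra and Cspg4. A precursor that leaves the cell cycle passes through a short premyelinating stage, in which it switches off precursor genes, extends processes and starts to express myelin genes, and many cells are lost there before they wrap an axon. Enpp6, a choline-specific phosphodiesterase, and Gpr17, a G protein-coupled receptor that restrains maturation, are widely used to mark that stage. Bcas1 marks early myelinating cells. Fyn, a Src-family kinase, drives the outgrowth of processes and the local translation of myelin basic protein.

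The members fell into clearly different sets by Fyn, a gene that the selection did not use. In the knockdown-labelled library 24 of the 35 nuclei held 9 to 37 UMIs of Fyn, and the other 11 held at most 2. In the control 43 of 335 held 6 to 68 UMIs, whereas 206 had no UMI of Fyn, 75 had 1 or 2 and 11 had 3 or 4. Members were therefore split at 5 UMIs of Fyn, a choice made after its values were seen. The Fyn-high nuclei made up 68.6% of members in the knockdown-labelled library (95% interval 50.7 to 83.1) and 12.8% in the control (9.45 to 16.9). The share in the control moved with thinning and with the selection. It was 35.4% and 35.3% with nuclei thinned to 1500 and 1000 UMIs, where Fyn-high was counted from 3 UMIs of Fyn instead of 5. It was 26.4% with at least 3 UMIs of Enpp6 and Gpr17, and 45.7% with at least 3 of the 5 further markers. In the knockdown-labelled library these shares were 66.7%, 66.7%, 95.5% and 100%. Their median depth was 5271 and 5866 UMIs per nucleus, against 2493 and 3574.5 in the Fyn-low nuclei. Moving the split to 10 UMIs left 22 and 41 Fyn-high nuclei, and moving it to 3 UMIs left 24 and 54.

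**Figure D1:**
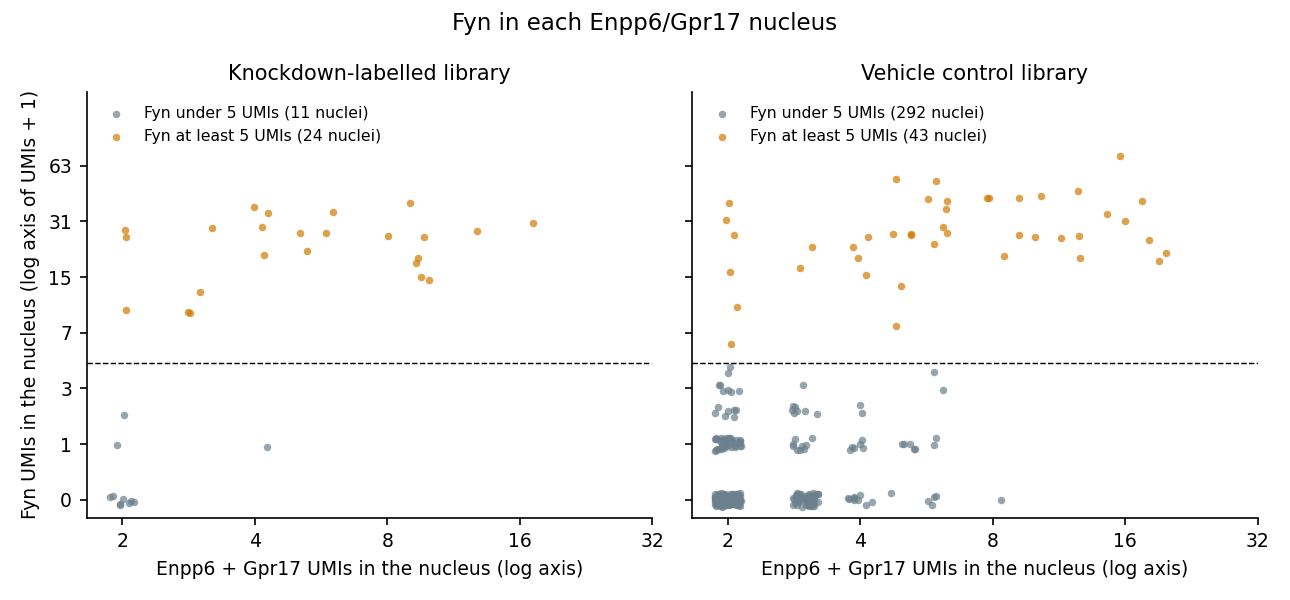
Each point is 1 Enpp6/Gpr17 nucleus, with the UMIs of Enpp6 and Gpr17 together on the x axis and the UMIs of Fyn on the y axis, both on log axes and slightly jittered; the dashed line is the split at 5 UMIs. The 24 and 43 Fyn-high nuclei lie above the line, and the 292 Fyn-low nuclei of the control crowd at 2 or 3 UMIs of Enpp6 and Gpr17.

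The genes of the selection themselves separated along the same line. Bcas1 stood at 3949 and 5138 CPM (UMIs per 1000000 of the summed UMIs of the nuclei) in Fyn-high nuclei, and at 611 and 659 in Fyn-low nuclei. Tns3, which encodes the adhesion protein tensin 3, stood at 2065 and 1802 CPM against 262 and 296. Kif19a, a kinesin, had 69 and 94 UMIs in Fyn-high nuclei and 0 and 3 in Fyn-low nuclei. Bmp4, a ligand of the BMP family, stood at 375 and 659 CPM in Fyn-high nuclei, with 1 and 13 UMIs in all Fyn-low nuclei. Enpp6 differed little, at 923 and 763 CPM in Fyn-high and 698 and 590 in Fyn-low nuclei. Enpp6 alone, with no UMI of Gpr17, had let in 11 of 11 and 247 of 292 Fyn-low nuclei.

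At the edge of the selection, most nuclei were Fyn-low. Of members with exactly 2 UMIs of Enpp6 and Gpr17, 3 of 13 were Fyn-high in the knockdown-labelled library and 6 of 195 in the control. Among those with 6 or more UMIs, 11 of 11 and 25 of 34 were. No member with just 2 of the 5 further markers was Fyn-high (0 of 11 and 0 of 241), while 23 of 23 and 39 of 42 members with 4 or 5 of them were. Just outside the selection, 2 of 44 and 5 of 497 nuclei with 1 UMI of Enpp6 and Gpr17 that met every other criterion had at least 5 UMIs of Fyn. Of the nuclei that failed only on Pdgfra, 1 of 7 and 8 of 78 did.

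Gene content outside the selection placed the Fyn-low nuclei nearer to mature oligodendrocytes than to Fyn-high nuclei. For comparison, OPC nuclei (275 and 644) were taken by Pdgfra with Cspg4 or Lhfpl3, and mature oligodendrocyte nuclei (770 and 3621) by at least 3 UMIs of Mobp with Mog or Mag and no UMI of Enpp6 or Gpr17. Among the 15 nearest neighbours of a Fyn-high nucleus, found without Fyn and without any gene of these rules, 70.8% and 74.4% on average were Fyn-high nuclei too. Neighbours of Fyn-low nuclei were Fyn-high in 0% and 0.365% of cases and mature oligodendrocytes in 24.8% and 37.3%. For mature nuclei themselves, mature neighbours made up 38.3% and 45.3%.

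Over whole gene lists the Fyn-low nuclei kept to the level of mature oligodendrocytes. A list of 32 genes known from newly formed oligodendrocytes, scored without Fyn and the genes of the rules, had a median of 43.9 and 56.3 UMIs per 10000 in Fyn-low nuclei and 37.4 and 56.4 in mature nuclei. In Fyn-high nuclei the same list reached 361 and 192, against 23.9 and 30.0 in OPC nuclei. A list of late oligodendrocyte genes showed the reverse order, with medians of 28.9 and 38.4 per 10000 in Fyn-high nuclei, 167 and 171 in Fyn-low nuclei and 174 and 202 in mature nuclei. Precursor genes were intermediate in Fyn-high nuclei, at 99.9 and 163 per 10000 between 185 and 208 in OPC nuclei and 10.3 and 10.3 in mature nuclei. The data therefore go against the label for the Fyn-low nuclei, which are 303 of the 370 members.

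**Figure D2:**
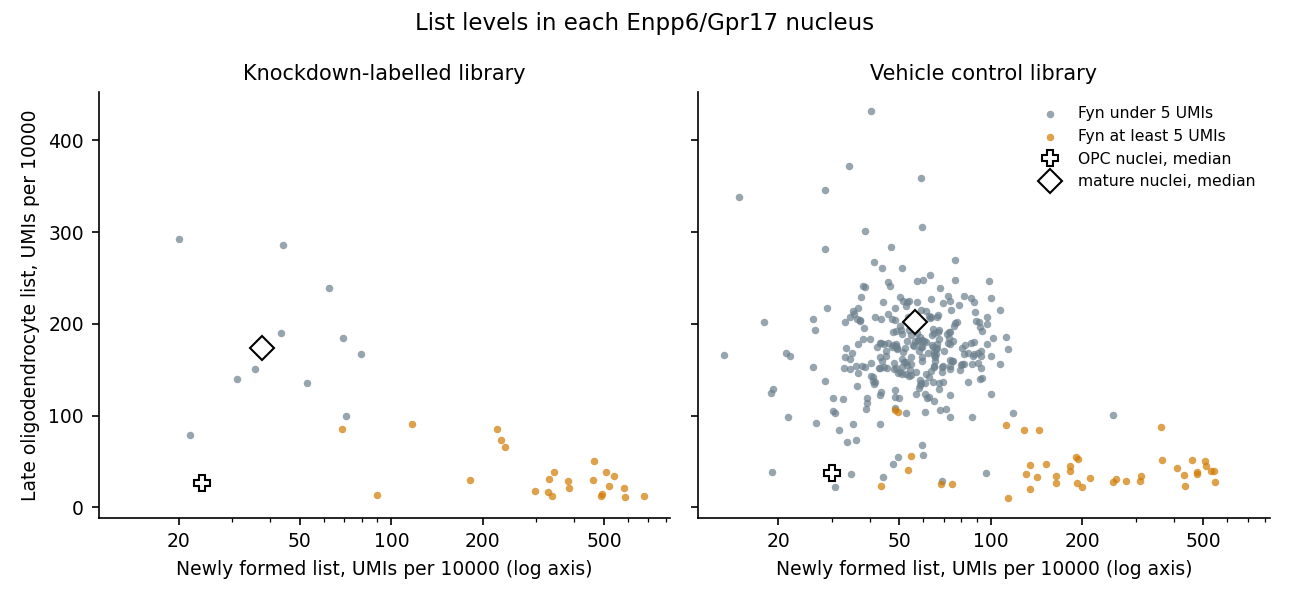
Each point is 1 Enpp6/Gpr17 nucleus, with UMIs per 10000 in the newly formed list on the log x axis and in the late oligodendrocyte list on the y axis; open symbols mark the medians of OPC and mature nuclei of the same library. Fyn-low nuclei lie around the mature median. Fyn-high nuclei lie low on the late list and mostly to the right, with medians of 361 and 192 on the newly formed list. In the control their 10th percentile on that list, 57.5, is near the mature median of 56.4, so the sets overlap there.

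Low counts of Enpp6 were also found in mature and microglia nuclei chosen without reference to it. Among nuclei that met the mature criteria with no limit on Enpp6 and Gpr17, 3.38% of 888 in the knockdown-labelled library and 8.86% of 4953 in the control held 2 or more UMIs of Enpp6, and 13.1% and 24.2% held at least 1. Microglia nuclei, which should lack the gene, held at least 1 UMI of Enpp6 in 0.427% (1 of 234) and 3.65% (43 of 1179), at median depths of 1829 and 1984 UMIs. The share with at least 1 UMI thus lay above that of microglia in mature nuclei, whose median depths were 2182 and 2608 UMIs. In the control, 13 members also met the criteria for microglia, and none did in the knockdown-labelled library. Scrublet marked as doublets 60 of the 292 Fyn-low nuclei of the control (20.5%, against 10.9% of all its nuclei) and 3 of its 43 Fyn-high nuclei; in the knockdown-labelled library it marked 1 of 11 and 1 of 24.

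The 2 libraries differed in the number of these nuclei, and the size of the difference depended on which set was counted. All members together were 0.261% (0.182 to 0.362) and 2.67% (2.40 to 2.97) of filtered nuclei, a 10.3-fold lower share in the knockdown-labelled library (log2 ratio -3.36, -3.91 to -2.85). Per 100 OPC nuclei there were 12.7 and 52.0, and per 100 mature nuclei 4.55 and 9.25 (log2 ratio -1.03, -1.57 to -0.52). Fyn-low nuclei carried most of that gap, with 0.0819% and 2.33% of filtered nuclei and 1.43 and 8.06 per 100 mature nuclei (log2 ratio -2.50, -3.52 to -1.64).

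Fyn-high nuclei made up 0.179% (0.115 to 0.266) and 0.343% (0.249 to 0.462) of filtered nuclei, a log2 ratio of -0.94 (-1.73 to -0.19). Measured against their precursors they numbered 8.73 and 6.68 per 100 OPC nuclei, a log2 ratio of 0.39 whose interval, -0.40 to 1.14, spans 0. Measured against mature nuclei they numbered 3.12 and 1.19 per 100, higher in the knockdown-labelled library by a log2 ratio of 1.39 (0.61 to 2.15). The direction of their difference thus changed with the denominator. OPC nuclei were 2.05% and 5.14% of filtered nuclei and mature nuclei 5.73% and 28.9%, and the median depth of all filtered nuclei was 6094 and 2577 UMIs.

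Depth bears on a rule set in UMIs. When every nucleus was thinned to 1500 UMIs, leaving out 1151 and 477 shallower nuclei, 12 and 65 members were found, with a log2 ratio of -2.46 per filtered nucleus and -0.10 (-1.12 to 0.80) per mature nucleus. Thinned to 1000 UMIs, with 425 and 37 left out, 9 and 34 were found, and the ratio per mature nucleus turned to 0.47 (-0.77 to 1.56). Requiring 3 of the 5 further markers, at full depth, left 24 and 94 members and also turned it, to 0.26 (-0.45 to 0.92). Thinned nuclei counted as Fyn-high from 3 UMIs of Fyn instead of 5. The ratio of Fyn-high nuclei per 100 mature nuclei stayed above 0 in these settings, at 0.81 (-0.56 to 2.03), 1.39 (-0.31 to 2.92) and 1.39. Per 100 OPC nuclei it turned to -0.51 (-1.88 to 0.70) at 1500 UMIs. The libraries hold nuclei of both sexes in unequal parts. Among nuclei with Xist and no Y-linked UMI the members numbered 6 and 171 (log2 ratio of the share -4.41), and among those with the reverse pattern 11 and 77 (-3.32).

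**Figure D3:**
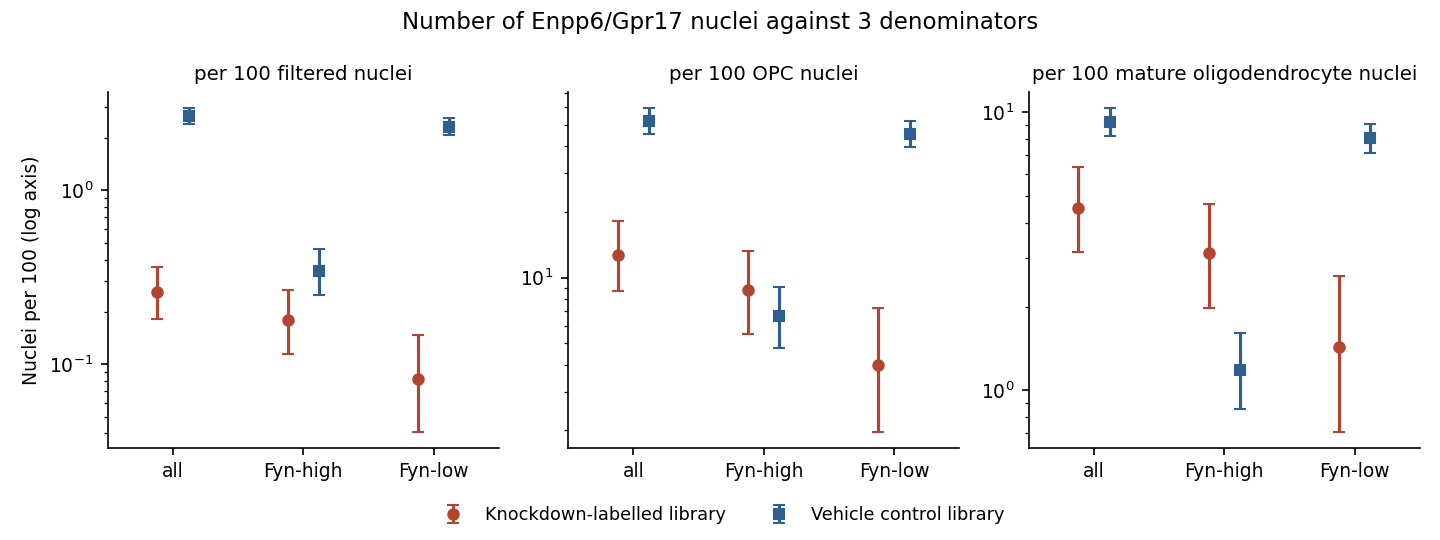
Number of Enpp6/Gpr17 nuclei, all together and split by Fyn, per 100 filtered nuclei, OPC nuclei and mature oligodendrocyte nuclei; points are the 2 libraries, bars are exact 95% intervals for counting error, and the y axes are logarithmic. Fyn-low nuclei are lower in the knockdown-labelled library on every panel, whereas Fyn-high nuclei lie below the control per filtered nucleus and above it per mature nucleus.

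The genes that set Fyn-high nuclei apart from both neighbours in the lineage were strongly raised in both libraries. Genes were compared within each library and counted as higher or lower when past 2-fold in the same direction in both. Against OPC nuclei 229 of 2778 genes were higher (8.24%) and 320 lower (11.5%), and against mature nuclei 299 of 2681 were higher (11.2%) and 301 lower (11.2%). Of the newly formed list, 17 of the 22 members measured were higher against OPC nuclei and 16 of 22 against mature nuclei, and none was lower. Their median log2 ratio was 3.39 and 2.55 over OPC nuclei and 3.39 and 2.76 over mature nuclei. The nuclei were split on Fyn, which travels with these genes, so these counts describe the set and are no independent support for its name.

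Frmd4a, a FERM-domain scaffold of cell polarity, stood at 12546 (11951 to 13162) and 7052 (6744 to 7370) CPM in Fyn-high nuclei. It stood at 168 and 180 CPM in OPC nuclei, 116 and 270 in Fyn-low nuclei and 175 and 184 in mature nuclei. The noncoding genes Gm36988 and Gm13187, which a mouse annotation of the preceding genome build places inside Frmd4a, ranked beside it, and their reads cannot be told apart from those of Frmd4a because the strand used in counting is not stated. The long noncoding RNA 9630013A20Rik stood at 4662 and 2103 CPM in Fyn-high nuclei, against 24.6 and 33.8 in OPC nuclei and 61.2 and 54.9 in mature nuclei; it lies antisense inside Pcdh17, with the same limit. It had a UMI in 24 of 24 and 41 of 43 Fyn-high nuclei.

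Epb41l2 and Rnd2 ranked among the 15 most raised genes of Fyn-high nuclei. Map1b did not, but ranked 9 among 3396 genes over all members. Sirt2 was among the 15 highest of neither ranking and was chosen after its values were seen. Map1b, a microtubule-associated protein, stood at 1577 and 1577 CPM in Fyn-high nuclei, 216 and 97.7 in OPC nuclei and 197 and 78.8 in mature nuclei. Epb41l2, a membrane-cytoskeleton linker of the protein 4.1 family, stood at 1457 and 1666 CPM against 66.4 and 93.3 in OPC nuclei and 90.2 and 157 in mature nuclei. The GTPase Rnd2 was 3.90 and 3.45 higher on the log2 scale than in OPC nuclei and 4.92 and 3.69 higher than in mature nuclei. Sirt2, a tubulin deacetylase, stood at 984 and 1197 CPM, against 121 and 175 in OPC nuclei and 144 and 182 in mature nuclei. In the wider list of process extension and adhesion, 9 of 30 genes measured were higher than in OPC nuclei and 4 lower; the guidance receptors Dcc (203 and 193 CPM against 1028 and 1158) and Robo1 (135 and 269 against 730 and 779) were among the lower. Against mature nuclei 7 of 37 were higher and 7 lower. Over all genes, 8.24% were higher and 11.5% lower against OPC nuclei, and 11.2% each way against mature nuclei. The 4 lower of 30 are thus no result about the list.

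Nfasc, an adhesion molecule of the paranodal junction, stood at 4602 and 2455 CPM in Fyn-high nuclei, 228 and 256 in OPC nuclei and 635 and 778 in mature nuclei; it was not among the 15 most raised. Tmem108 and Pik3r3 were. Tmem108 stood at 3386 and 3723 CPM, against 190 and 259 in OPC nuclei and 115 and 99.6 in mature nuclei. Pik3r3, a regulatory subunit of PI3-kinase, stood at 150 and 86.0 CPM, against 6.43 and 7.52 in OPC nuclei and 4.74 and 7.72 in mature nuclei. Of 5 genes of the p53 and apoptosis list with enough UMIs to be measured against OPC nuclei, none was past 2-fold; genes of that list with too few UMIs are outside this count.

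**Figure D4:**
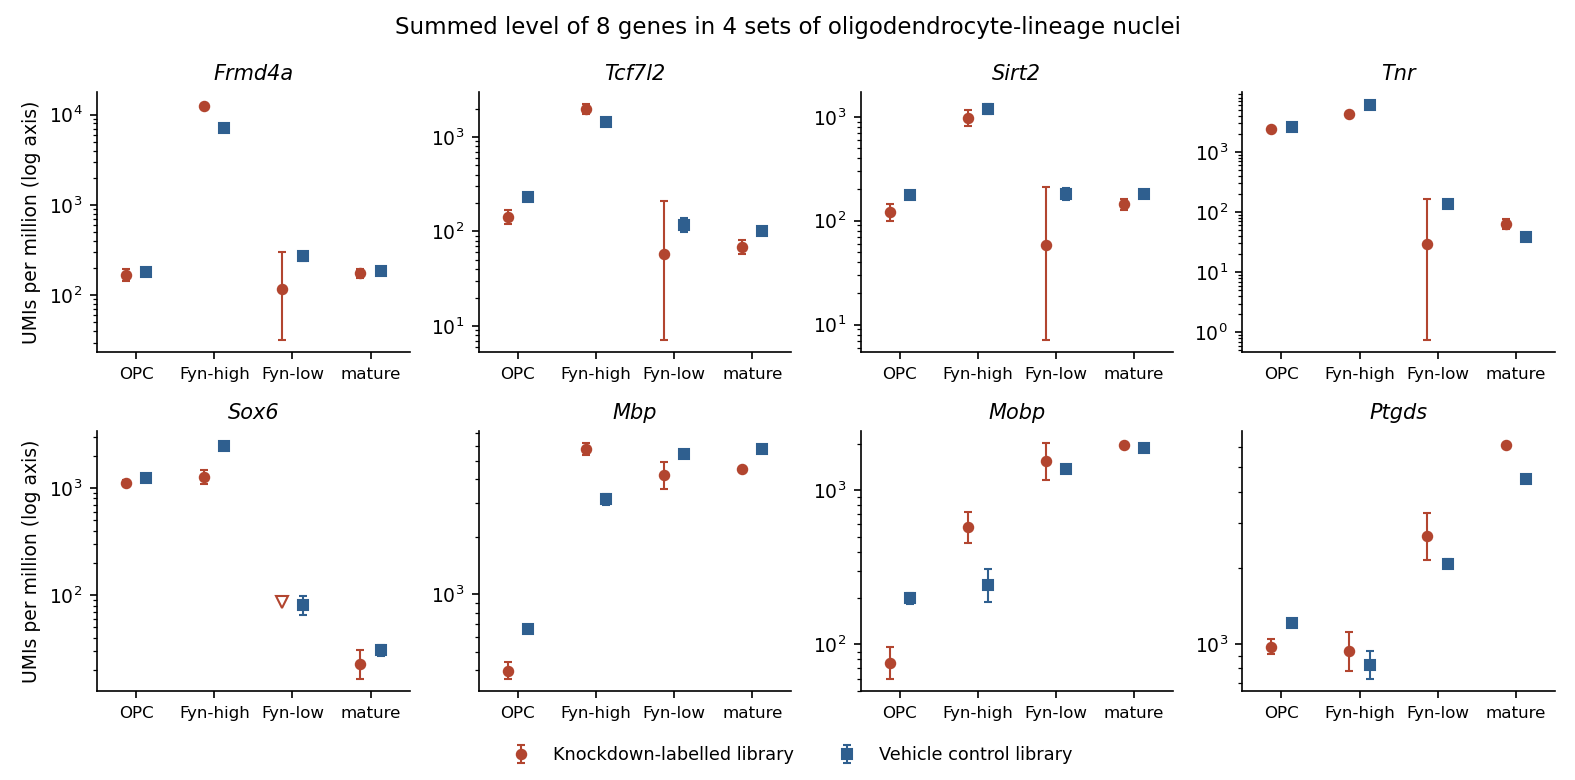
Summed level of 8 genes, in CPM on log axes, in OPC, Fyn-high, Fyn-low and mature oligodendrocyte nuclei of the 2 libraries, with exact Poisson 95% intervals; the open triangle marks the level that 3 UMIs would give where the sum was 0. Frmd4a, Tcf7l2 and Sirt2 peak in Fyn-high nuclei, Tnr and Sox6 are shared with OPC nuclei, and Mobp and Ptgds are highest in Fyn-low and mature nuclei. Mature nuclei were chosen by at least 3 UMIs of Mobp, so its level in them was set by the rule and is a description.

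Among transcription factors of the lineage, 6 of the 23 measured were higher than in OPC nuclei and 2 lower. The shares over all genes were 8.24% and 11.5%, so the 2 lower are no result about the list. Tcf7l2, an effector of Wnt signalling that is transient in differentiating oligodendrocytes, stood at 1990 and 1455 CPM, against 144 and 233 in OPC nuclei and 69.1 and 101 in mature nuclei. St18, a zinc-finger factor, stood at 2418 and 2333 CPM against 156 and 265 in OPC nuclei, and stood at 1692 and 2660 in mature nuclei. Myrf, which drives myelin gene expression, stood at 278 and 201 CPM against 25.7 and 61.8 in OPC nuclei. Nkx2-2 (90.1 and 233 CPM) and Sox4 (82.6 and 244) were also above their OPC levels of 42.9 and 67.6 and 38.6 and 100. Sox5, a partner of Sox6 in precursors, was lower, at 233 and 365 CPM against 885 and 933.

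Precursor genes differed unevenly from their OPC level. Of 21 genes of the OPC list measured, 13 were lower in Fyn-high than in OPC nuclei and none higher, with medians of -1.75 and -1.22 on the log2 scale. Over all genes measured 11.5% were lower and 8.24% higher. A gene of this list could be measured through its OPC level alone, which favours lower calls. Xylt1, which starts glycosaminoglycan chains, stood at 143 and 491 CPM against 1560 and 1493, and Nxph1, a neurexin ligand, at 105 and 459 against 1263 and 1717. Ptprz1, a receptor tyrosine phosphatase, stood at 338 and 799 CPM against 2369 and 2792. In contrast, Tnr (tenascin R) stood at 4227 and 5988 CPM in Fyn-high nuclei, above the 2440 and 2621 of OPC nuclei, and far above the 63.8 and 37.9 of mature nuclei. Sox6, a factor that holds precursors, stood at 1276 and 2444 CPM against 1104 and 1240 in OPC nuclei and 22.7 and 30.5 in mature nuclei. Against mature nuclei 11 of 16 measured genes of the OPC list were still higher, beside 11.2% of all genes.

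Many ion channel and transporter genes were lower in Fyn-high than in OPC nuclei. Of 27 such genes measured, 18 were lower and 3 higher, against 11.5% and 8.24% of all genes measured. A gene could be measured through its OPC level alone, which favours lower calls. Kcnd2, a subunit of the A-type potassium current, stood at 82.6 and 201 CPM against 2099 and 2328. The 3 that were higher were Slc44a1, a choline transporter-like protein (1284 and 1129 against 159 and 200), Tmem163, a zinc transporter (1306 and 756 against 240 and 262), and the glutamate transporter Slc1a1 (503 and 681 against 170 and 162). Against mature nuclei 4 of 15 channel and transporter genes were higher and 3 lower, beside 11.2% of all genes each way. Of 23 receptor genes measured against OPC nuclei in the same way, 8 were lower and 1 higher. The 1 higher was Thra, a thyroid hormone receptor. Gria2, an AMPA receptor subunit, stood at 3852 and 3737 CPM, against 2075 and 1573 in OPC nuclei and 749 and 200 in mature nuclei. Ntrk2, the receptor of BDNF, stood at 90.1 and 147 CPM against 527 and 447 in OPC nuclei, and Bdnf itself had 0 and 1 UMI in Fyn-high nuclei.

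Several myelin genes were above their OPC level in Fyn-high nuclei. Of 17 myelin genes measured, 6 were higher than in OPC nuclei and none lower, against 8.24% and 11.5% of all genes. Of 13 late genes measured none was higher and 1 lower, counts that are no result about the list beside these shares. Mbp stood at 5804 and 3160 CPM against 398 and 659 in OPC nuclei. Against mature nuclei none of 21 myelin genes was higher and 10 were lower, among them Mal (165 and 244 against 1130 and 1103) and Ermn (37.5 and 53.7 against 546 and 632). Over all genes measured against mature nuclei, 11.2% were higher and 11.2% lower. A gene could be measured there through its mature level alone, which favours lower calls. Of 17 late oligodendrocyte genes, 16 were lower than in mature nuclei. Ptgds, the prostaglandin D synthase of late oligodendrocytes, stood at 938 and 828 CPM in Fyn-high nuclei, close to 976 and 1214 in OPC nuclei and below 6135 and 4510 in mature nuclei. The exception was S100b, at 158 and 258 CPM against 19.5 and 28.7. Of 10 genes of cholesterol and myelin lipid synthesis, 2 were higher than in OPC nuclei: Fa2h, the fatty acid 2-hydroxylase of myelin lipids, and Elovl7, a fatty acid elongase. Beside 8.24% of all genes, 2 of 10 is no result about the list.

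Genes that were low in Fyn-high nuclei against both neighbours form the other end of the ranking. Marchf1, a ubiquitin ligase, stood at 97.6 and 71.7 CPM, against 958 and 1140 in OPC nuclei and 388 and 561 in mature nuclei. Slc8a1, a sodium-calcium exchanger, stood at 82.6 and 226 CPM against 428 and 490 and against 1059 and 1266. Apoe stood at 90.1 and 211 CPM against 429 and 483 in OPC nuclei and 348 and 575 in mature nuclei. In Fyn-low nuclei Marchf1 stood at 495 and 576 CPM and Slc8a1 at 1076 and 1366, near the mature level.

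Fyn-low nuclei had list medians near those of mature nuclei. The median log2 ratio over mature nuclei was 0.07 and 0.005 for the newly formed list, 0.02 and -0.07 for the myelin list and 0.25 and -0.11 for the late list. Of 6449 genes measured, 30 (0.465%) were higher in both libraries and 11 (0.171%) lower. A call needed both libraries, and the 11 Fyn-low nuclei of the knockdown-labelled library held 34372 UMIs, against 1163904 in the 292 of the control. Small sums in those 11 nuclei limit what could be called, so low counts do not show that the sets are alike. None of 19 genes of the newly formed list was higher, against a background of 0.465%, 1 of 27 myelin genes (Opalin) was lower, and of 21 late genes Ptgds was lower and S100b higher; Opalin and S100b rested on 0 and 1 UMI in the knockdown-labelled library. Slc24a2, a potassium-dependent sodium-calcium exchanger, stood at 3258 and 4104 CPM in Fyn-low nuclei, 2777 and 3729 in mature nuclei and 330 and 484 in Fyn-high nuclei. Mbp stood at 4219 and 5464 CPM in Fyn-low and 4524 and 5769 in mature nuclei. Ptgds stood at 2677 and 2079 CPM against 6135 and 4510. Counted before the split, members differed from OPC nuclei in 434 of 8049 genes higher (5.39%) and 776 lower (9.64%), and from mature nuclei in 257 of 7666 higher (3.35%) and 16 lower (0.209%).

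Fyn-high nuclei were not uniform. Frmd4a split them further: in the knockdown-labelled library 20 of 24 held 22 to 155 UMIs and the other 4 at most 2, and in the control 19 of 43 held 12 to 183 UMIs and the other 24 at most 5. This split at 10 UMIs was chosen after the values were seen. Frmd4a-high nuclei were thus 83.3% (62.6 to 95.3) and 44.2% (29.1 to 60.1) of Fyn-high nuclei. In the control, all 24 Frmd4a-low nuclei and 14 of the 19 Frmd4a-high nuclei had a UMI of Gpr17. Their median level of the OPC list was 189 per 10000, against 138 in the Frmd4a-high nuclei, at median depths of 4908.5 and 7287 UMIs. The same split, within the control, had Nfasc at 806 CPM in Frmd4a-low and 4032 in Frmd4a-high nuclei, Mbp at 1597 and 4656, Tcf7l2 at 579 and 2293, and Tmem108 at 1861 and 5505. Tnr, at 5781 and 6185 CPM, differed little between them.

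Gpr17 also varied among Fyn-high nuclei. Of these nuclei, 14 of 24 (58.3%) in the knockdown-labelled library and 38 of 43 (88.4%) in the control had a UMI of Gpr17, and 10 and 5 had Enpp6 alone. These genes belong to the selection, so the shares are a description.

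The libraries were then compared within all members and within Fyn-high nuclei. Over all members 727 of 7483 genes were at least 2-fold higher in the knockdown-labelled library (9.72%) and 1103 lower (14.7%). Because Fyn-low nuclei were 31.4% of members there and 87.2% in the control, that comparison mixes different sets. Of the newly formed list 18 of 27 measured genes were higher and none lower (median log2 ratio 1.26, against -0.03 over all genes), and of the late list 14 of 22 were lower and none higher (median -1.57). The lowest genes by the ranking were led by Inpp5d, Atp8b1, Slco2b1, C1qa and Selplg. Inpp5d, Slco2b1, C1qa and Selplg are known from microglia, and Atp8b1 encodes a phospholipid flippase. All 5 had no UMI among the 35 members of the knockdown-labelled library, and 11 of 12 measured microglial markers were past 2-fold lower. The highest, Cemip2, Pcdh19, Carmil1 and Col25a1, were carried by few nuclei.

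Within Fyn-high nuclei 121 of 2668 genes were at least 2-fold higher (4.54%) and 224 lower (8.4%), with a median log2 ratio of -0.12 over all genes. Genes of the newly formed list were higher in 7 of 24 cases and lower in 3 (median 0.52). Genes of the OPC list were higher in none of 18 and lower in 4 (median -0.72). Late genes were higher in 1 of 14 and lower in 5 (median -0.58). The median half-width of the single-gene intervals gave a band of -1.47 to 0.32 around it, which is no exact interval. With free RNA (RNA from outside the nuclei, taken from the neuron markers) subtracted, the late median changed sign, to 2.12 (band 1.23 to 3.02). Its direction is therefore not settled. The subtraction assigned 11.8% and 21.6% of the UMIs of Fyn-high nuclei to free RNA, and 31.9% and 91.1% of those of OPC nuclei. Neuron-marker RNA made by a set itself, or held by a single nucleus of it, would count as free RNA. In the control 1 Fyn-high nucleus held 37 of the 73 UMIs of the neuron marker Snhg11. The subtracted values are therefore a rough alternative and not a reliable correction. Myelin genes were higher in 1 of 18 and lower in 2 (median -0.10, and 0.32 with free RNA subtracted). In OPC nuclei 4.5% of genes were higher and 2.96% lower, and in mature nuclei 12.9% and 4.01%. The sums rest on 133195 and 279074 UMIs, of which Malat1, a nuclear RNA, took 11.7% and 7.92%; the part of that difference in the ratios was not tested. With free RNA subtracted the counts over all genes were 220 and 343, and after thinning to 1500 UMIs 6 and 22. The 7 higher genes of the newly formed list were Cemip2, whose UMIs lay mostly in 1 nucleus, Prom1, Rras2, Cnksr3, Plekha1, Pcdh17 and 9630013A20Rik.

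Nfasc was higher by a log2 ratio of 0.91 (0.75 to 1.07) in Fyn-high nuclei, against -0.16 in OPC nuclei and -0.29 in mature nuclei. Per nucleus it ran from 2.16 to 121 UMIs per 10000 in the knockdown-labelled library, with a median of 39.0, and from 0 to 89.4 in the control, with a median of 14.8, so the nuclei overlapped widely. Mbp was higher by 0.88 (0.74 to 1.02), whereas it was lower by -0.73 in OPC nuclei and -0.35 in mature nuclei. Its median per nucleus was 47.8 and 25.3 per 10000. Cntn1, an adhesion protein of the immunoglobulin family, stood at 1021 and 279 CPM, a log2 ratio of 1.87 (1.46 to 2.29), against -0.02 in OPC nuclei and 1.19 in mature nuclei. Sox10, the lineage factor that activates myelin genes, stood at 1164 and 674 CPM (0.79, 0.47 to 1.10).

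Of the 224 lower genes, 4 belonged to the OPC list. Xylt1 was lower by -1.75 (-2.56 to -1.09), with a UMI in 7 of 24 and 37 of 43 Fyn-high nuclei, and its ratio in OPC nuclei was 0.06. Nxph1 was lower by -2.08 (-3.04 to -1.33), in 6 of 24 and 28 of 43 nuclei, against -0.44 in OPC nuclei. Ptprz1 was lower by -1.23 (-1.74 to -0.77), against -0.24 in OPC nuclei. Sox6, at -0.93 (-1.19 to -0.69) and -0.17 in OPC nuclei, and Tnr, at -0.50 (-0.64 to -0.36), did not pass 2-fold. Of the early differentiation genes, Nkx2-2 (-1.32), Sox4 (-1.51) and Lims2 (-1.58) were past 2-fold lower and Neu4, at -0.97, was not; Sox4 and Lims2 stood at -1.36 and -1.21 in OPC nuclei and Neu4 at 0.02. After thinning to 1500 UMIs, which left 8 and 23 Fyn-high nuclei, Nkx2-2 and Sox4 turned to 0.08 and 0.87, Lims2 moved to -0.40 (-3.90 to 1.63) and Sox6 to -0.45 (-1.20 to 0.20), and these intervals for Lims2 and Sox6 span 0.

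**Figure D5:**
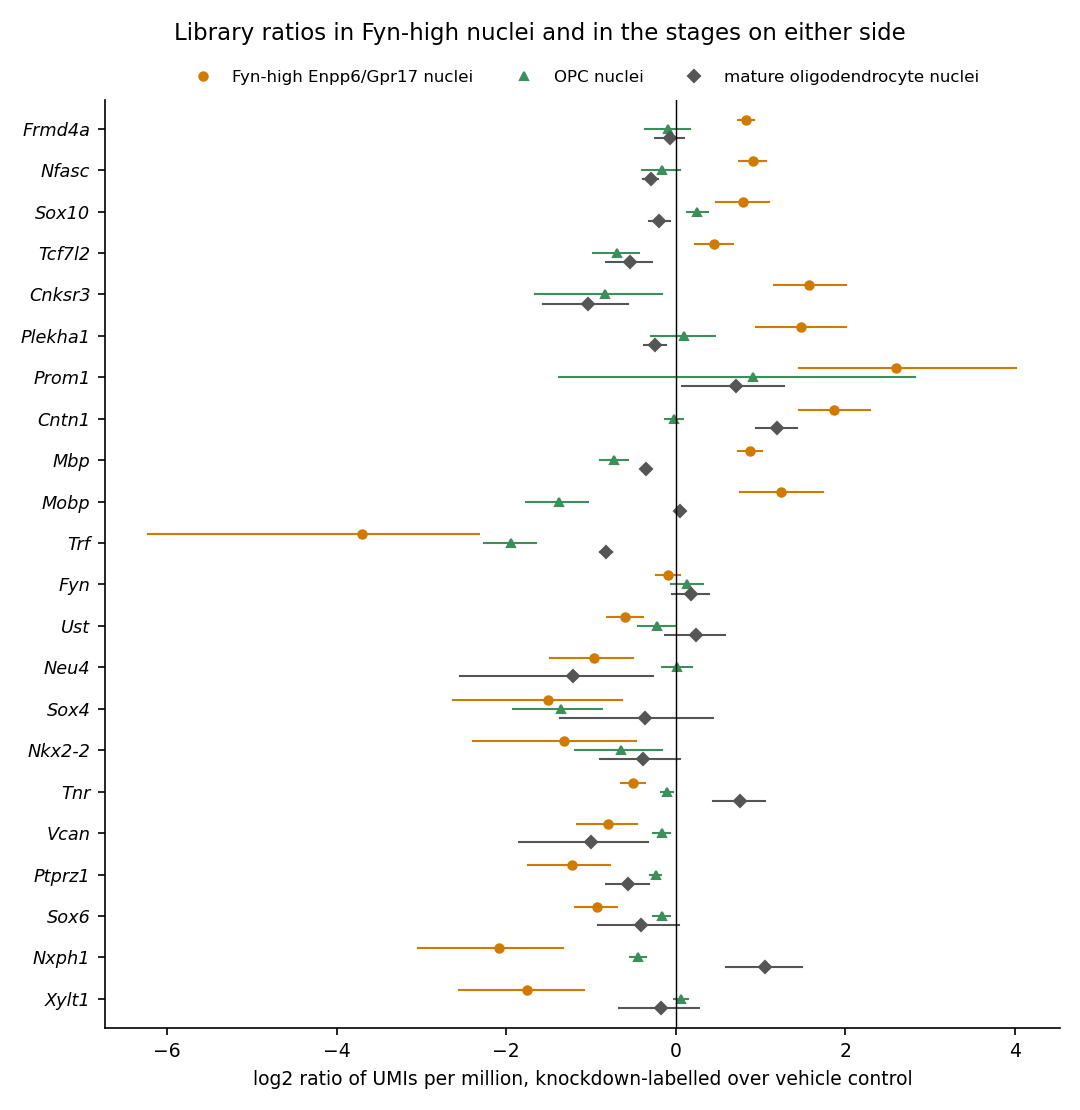
Log2 ratio of CPM, knockdown-labelled over vehicle control, for 22 genes in Fyn-high, OPC and mature oligodendrocyte nuclei; bars are exact 95% intervals for counting error, and the genes were chosen after their values were seen. Frmd4a, Nfasc and Mbp lie above 0 in Fyn-high nuclei alone among the 3 sets, Xylt1 and Nxph1 lie below 0 there, and Trf is below 0 in every set.

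Within the Frmd4a-high nuclei part of these ratios became smaller. Tcf7l2, at 0.45 (0.22 to 0.68) over all Fyn-high nuclei, came to 0.03 (-0.22 to 0.26), with 2332 and 2293 CPM. Nfasc came to 0.36 (0.19 to 0.53) and Mbp to 0.42 (0.26 to 0.57). Sox6 (-1.11, -1.40 to -0.82), Xylt1 (-2.51, -3.68 to -1.61), Tnr (-0.47) and Cntn1 (1.90, 1.40 to 2.46) stayed about as far from 0 as before or farther. Frmd4a was itself higher by 0.83 (0.74 to 0.93) over all Fyn-high nuclei and by 1.03 (0.91 to 1.16) among those with Gpr17, but turned to -0.46 (-0.61 to -0.30) among the 10 and 5 nuclei with Enpp6 alone.

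Myelin genes did not move as a group. Trf, the iron carrier transferrin, had 3 and 95 UMIs, in 2 of 24 and 33 of 43 Fyn-high nuclei, a log2 ratio of -3.70 (-6.22 to -2.33), and was lower in OPC nuclei at -1.94 and mature nuclei at -0.82. Mobp was higher by 1.25 (0.76 to 1.74), but its 77 UMIs in the knockdown-labelled library lay in 6 of 24 nuclei, 30 of them in 1 nucleus. Microglia nuclei, which should lack myelin genes, held Mbp at 235 and 828 CPM; the part of such RNA in these ratios was not tested.

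The extreme ratios in Fyn-high nuclei often came from a single nucleus. Trpm3 had 169 and 39 UMIs, a log2 ratio of 3.17, and 162 of the 169 lay in 1 nucleus, which also held 26 of the 29 UMIs of the fibroblast marker list; without it the ratio was -1.23 (-2.72 to -0.13). For Pcdh19 27 of 30 UMIs lay in 1 nucleus, and the ratio went from 3.54 to 0.50 (-2.27 to 2.78) without it. The same nucleus held 41 of 60 UMIs of Cemip2, a cell-surface hyaluronidase, whose ratio went from 5.18 to 3.63 (2.05 to 6.22). Another nucleus held 42 of 75 UMIs of Man1a, a Golgi mannosidase, 21 of 41 of Creb5 and 16 of 35 of Sytl2, and their ratios without it were 3.77, 2.44 and 2.99. Atp1b1, a subunit of the sodium pump, was spread over 19 of 24 nuclei, and its ratio of 2.94 stood beside 2.51 in OPC nuclei and 3.39 in mature nuclei.

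At the other end Prex2, an activator of Rac, had 0 and 38 UMIs, at least 6.05-fold lower against a floor of 3 UMIs over the group; 14 of the 38 lay in 1 of 43 nuclei. Gm42047 had 0 and 30 UMIs, at least 4.77-fold lower. Cntn6, a contactin, had 1 and 56 UMIs, the 56 spread over 20 nuclei, and the long noncoding gene E330020D12Rik had 3 and 146, spread over 29 nuclei. In OPC nuclei their log2 ratios were -0.67 and -1.54.

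The summed neuron markers were higher in the knockdown-labelled library in Fyn-high, OPC and mature nuclei, and the gap was widest in mature nuclei. In Fyn-high nuclei the 18 neuron markers summed to 3694 CPM (knockdown-labelled, none at 0) and 1319 CPM (control, Gad2 and Stmn2 at 0). Per nucleus the list reached at most 60.6 and 129 UMIs per 10000. In mature nuclei it summed to 7987 and 783 CPM, and in OPC nuclei to 9966 and 5551. Snhg11 stood at 1141 and 262 CPM and Meg3 at 908 and 201 in Fyn-high nuclei. In the control a single nucleus held 37 of the 73 UMIs of Snhg11, and a single nucleus 19 of the 56 of Meg3. Of Cntnap2, 1 control nucleus held 43 UMIs, 91.5% of its sum there. Part of the control sum thus rests on single nuclei. Medians per nucleus were 10.8 and 0.938 per 10000 for Snhg11 and 10.1 and 1.24 for Meg3. Of 6 neuron markers measured in Fyn-high nuclei, 2 were past 2-fold higher (median log2 ratio 0.59, and -0.42 with free RNA subtracted). In OPC nuclei 11 of 18 were (median 1.37), and in mature nuclei 18 of 18 (median 2.62). Of the microglial list, 10 of 12 markers were at 0 in the knockdown-labelled library and C1qb in the control, with sums of 7 and 37 UMIs. The part of such RNA in the library ratios was not tested.

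Bcas2, the gene named by the label, could not be compared in these nuclei. It had 3 and 7 UMIs in Fyn-high nuclei, 22.5 and 25.1 CPM, with a log2 ratio of -0.03 whose interval runs from -2.74 to 1.98. Fyn-low nuclei held 2 and 34 UMIs. Its levels were 35.4 and 30.7 CPM in OPC nuclei and 51.1 and 29.2 in mature nuclei, and a difference in Fyn-high nuclei was not detectable at this depth. Of 6 genes of the Prp19 complex and spliceosome measured there, none was past 2-fold in either direction (median log2 ratio 0.20). Among 8 stress-response genes the chaperones Hspa8 (3 and 28 UMIs, -1.96, -4.52 to -0.46; 0.11 in OPC nuclei) and Hsp90b1 (-1.37, -2.08 to -0.76; -0.98 in OPC nuclei) were lower. Among 13 genes of BDNF and TrkB signalling 1 was higher and 2 were lower. Over all genes measured in these nuclei 4.54% were higher and 8.4% lower, so counts this small on 8 and 13 genes are no result about either list.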

How the data were processed

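Single-nucleus RNA was captured with a 10x 3' kit from hippocampal nuclei that had been stained and sorted, 1 library per group, per the labels' protocols. The deposited matrices hold whole-number UMI counts per gene and barcode, which the authors obtained from Cell Ranger (version 9.0.1 per the file headers); the submitters' processing notes also name GRCm39, bcl2fastq 5.0.1 and Seurat 4.1.0. The strand used in counting is not stated there.

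Counts were summed over the nuclei of each set in each library. Sums were divided by the set's total UMIs. Log2 ratios add 0.5 UMI to each sum, and 2-fold was the threshold. Between libraries, genes with at least 30 UMIs over both libraries were compared. Against OPC or mature nuclei, genes were compared by their mean CPM over the set and the reference in both libraries. That mean had to be worth at least 30 UMIs at the set's summed UMIs, so the set itself could hold fewer. Exact Poisson, Clopper-Pearson and conditional binomial 95% intervals cover counting error only. OPC nuclei needed 2 UMIs of Pdgfra, 1 of Cspg4 or Lhfpl3 and under 2 of Enpp6 and Gpr17. Mature nuclei needed 3 UMIs of Mobp, 1 of Mog or Mag and none of Enpp6, Gpr17 or Pdgfra. Microglia nuclei needed 3 UMIs over at least 2 of a small set of microglial genes that included Csf1r, Cx3cr1 and P2ry12. Some genes are not reported here. All 3 sets allowed at most 6 UMIs of Syt1. Genes of a set's own rule were left out of its gene counts. Neighbours came from 30 principal components of 2000 variable genes. Doublets were marked with Scrublet and kept; its automatic threshold marked 0.016% of control nuclei, so the nuclei with the highest scores were marked there at a rate of 0.8% per 1000 nuclei. The median UMIs of filtered nuclei were 6094 and 2577.

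Members and gene lists were chosen with earlier results of these data known. Named genes were the 15 highest and 10 lowest by the weakest of the 4 ratios over OPC and mature nuclei, the 10 at each end of the library ratio, and, per list, those with most UMIs or the largest ratio. The splits on Fyn and Frmd4a, and other genes named, were chosen after their values were seen. The ratio script was tested on simulated sums that carried counting error only, with no spread among nuclei. Among 2663 genes run for Fyn-high nuclei it called 98.9% of those raised 4-fold and 2.39% of unchanged ones. Among 7561 genes run for all members it called 7.81% of unchanged ones. Spread among nuclei, such as genes held mostly by a single nucleus, is outside these rates, so they are no yardstick for the shares called in the data. Free RNA was scaled for each set by its neuron-marker level relative to that of the whole library, and subtracted sums were not allowed to become negative. Alternatives changed filters, depth, doublets, scaling, free RNA and sex. Where nuclei were thinned, the split on Fyn was lowered to 3 UMIs. Python 3.11.15, scipy 1.17.1, scanpy 1.11.5 and, for TMM factors, edgeR 4.0.16 were used.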

Additional observations from a re-analysis of the deposited data

How the results depend on the processing

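Of 414 recomputed values that answer a comparison, 320 stayed within the spread or within 1.5 times, 92 moved and 2 reversed; of 1590 recomputed values of single genes and other lists, 1441 stayed, 135 moved and 14 reversed. No value moved in these ways with looser or stricter filters, doublets removed, other limits on Syt1, a lineage gene required, mean CPM over nuclei, other limits on Fyn or the microglia-like members left out, among the values that answer a comparison. No paired analysis was possible because each group is 1 library. The causes were not tested, except that fewer nuclei or genes enter under thinning, sex and UMI minimums by construction.

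The log2 ratio of members per filtered, OPC and mature nucleus was -2.46, -1.42 and -0.0996 at 1500 UMIs, -1.98, -0.853 and 0.473 (reversed) at 1000 UMIs, -2.77, -1.44 and -0.436 with at least 3 UMIs of Enpp6 and Gpr17, -2.07, -0.742 and 0.264 (reversed) with at least 3 further markers, and -4.41, -3.39 and -2.17 in nuclei with Xist alone. For Fyn-high nuclei it was -1.78, -0.756 and 0.461 with Xist alone, and -0.510 per OPC nucleus at 1500 UMIs. Fyn-high nuclei were 95.5%, 83.3% and 100% of members in the knockdown-labelled library with at least 3 UMIs of Enpp6 and Gpr17, with Xist alone and with 3 further markers, and 35.4%, 35.3%, 26.4% and 45.7% in the control at 1500 UMIs, at 1000 UMIs, with 3 UMIs of Enpp6 and Gpr17 and with 3 further markers.

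Genes higher and lower between libraries numbered 55 and 129 in members at 1500 UMIs, 201 and 439 in nuclei with Y-linked UMIs alone, 232 and 647 with 3 further markers, 1745 and 1959 at a minimum of 10 UMIs and 349 and 649 at 60; 412 were higher with 3 UMIs of Enpp6 and Gpr17, and 482 with TMM scaling. In Fyn-high nuclei they numbered 6 and 22 at 1500 UMIs, 59 and 82 with Y-linked UMIs alone, 220 and 343 with free RNA subtracted, 617 and 818 at a minimum of 10 and 46 and 82 at 60, with 79 higher with Xist alone. Against OPC nuclei members had 85 higher and 84 lower at 1500 UMIs, 241 and 312 with Y-linked UMIs alone, 258 and 429 with 3 further markers, 279 higher with 3 UMIs of Enpp6 and Gpr17, and 510 and 1200 lower with Xist alone and at a minimum of 10. Against mature nuclei they had 74 higher at 1500 UMIs, 90 and 10 with Y-linked UMIs alone, 165 higher with Xist alone, 429 and 52 at a minimum of 10, and 35 and 166 lower with 3 UMIs of Enpp6 and Gpr17 and with 3 further markers. Fyn-high nuclei against OPC nuclei had 38 and 27 at 1500 UMIs, 76 and 61 with Y-linked UMIs alone, 147 and 162 with Xist alone, 355 and 684 at a minimum of 10 and 151 and 172 at 60; against mature nuclei these were 42 and 27, 86 and 78, 157 and 144, 560 and 533, and 192 and 179.

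The median of the newly formed list over members was 0.766 at 1500 UMIs and 0.742 with 3 further markers. With Y-linked UMIs alone the OPC and myelin lists came to -0.739 and -0.141 in members, and the newly formed, OPC and myelin lists to 1.31, -1.99 and 0.418 in Fyn-high nuclei; with Xist alone the OPC list came to -1.40. Reversed at 1500 UMIs were C1qa (0.115) and Plekho1 (0.852) in members and, in Fyn-high nuclei, the transcription factor list (0.198), Kndc1 (-0.798), Nkx2-2 (0.083), Sox4 (0.871) and Trpm3 (-2.18). Trpm3 also reversed with Y-linked UMIs alone (-1.49), Xist alone (-0.929) and without its leading nucleus (-1.23), and with Y-linked UMIs alone the transcription factor list (0.160) and Ust (0.112) did. With free RNA subtracted, the late and neuron-marker lists in Fyn-high nuclei changed sign, from -0.576 to 2.12 and from 0.590 to -0.422. Their main bands, set by the median half-width of the single-gene intervals, span 0. Such bands of list medians are no exact intervals. Col25a1 in members reversed to -0.0931 with 3 UMIs of Enpp6 and Gpr17 and to -0.117 with 3 further markers.

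The requirement of 3 further markers, the limits on Fyn and the removals of microglia-like members and leading nuclei were chosen after seeing the data. With 24 and 43 Fyn-high nuclei, genes under about 30 UMIs could not be compared between the libraries. Every difference between the libraries rests on 1 library a side.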
